A study of Mus musculus with 2 samples.

Results

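The transforming growth factor beta (TGF-beta) pathway was followed through 9 genes measured in both matrices: the ligand Tgfb1, the receptors Tgfbr1 and Tgfbr2, the signal carriers Smad2, Smad3 and Smad4, and the genes of restraint Smad7, Skil and Tgif1. They were taken by name from the 27998 genes counted and not by a cut on their values, but with earlier results of these data known. Macrophages of the mouse small intestine were profiled cell by cell in droplets, by RNA sequencing of transcript ends, with 1 library from wild-type C57BL/6J males (Janvier) and 1 from CCR2-/- mice of a JAX strain bred in-house. Ccr2 is the chemokine receptor with which monocytes leave the marrow and enter tissue, and the CCR2-/- strain lacks it throughout. Each library came from 3 to 4 pooled intestines. Live CD45+ cells were sorted that bore CD11b, MHCII and CD64 and stained for none of CD3, TCRb, B220, SiglecF, Ly6C and Ly6G. The wild-type cells were run on 2 lanes. Ages, and the sex of the knockout animals, are not given in the sources used here, and genotype, animal source, pool and library cannot be told apart.

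TGF-beta is secreted in a latent form that integrins, proteases and thrombospondin can activate. The active ligand binds the type II receptor, which recruits and phosphorylates the type I receptor, and the latter phosphorylates Smad2 and Smad3, which join Smad4 and act on genes in the nucleus. The pathway is known for restraining inflammation in the gut and for its part in the maturation of monocytes into intestinal macrophages.

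Cells entered with 200 genes or more and no more than 10% of UMIs from mitochondrial genes, a UMI being the molecular tag that marks 1 captured transcript end. The wild type gave 3016 cells, whose median depth was 6129 UMIs (6185 in lane 1 and 6034 in lane 2), and the knockout 2612 cells, whose median was 2439. At least 3 of 8 macrophage markers had a UMI in 99.2% of wild-type and 95.02% of knockout cells. A narrower macrophage gate, which also allowed at most 1 marker of any other lineage, held 93.2% and 76.8%. Summed marker levels stood higher in the knockout for fibroblasts (230.0 against 25.7 UMIs per 1000000, all 4 markers above 0 in both), endothelium (159 against 51.9, all 3 markers) and red cells (6839 against 668, all 3 markers). Inside the gate those sums were 30.5 against 9.31, 138 against 51.2 and 328 against 11.4. Immediate-early genes, a list of 19 rapidly inducible transcripts such as Fos and Egr1, took 3.02% of knockout and 0.823% of wild-type UMIs. The lanes shared 5 barcode sequences, the knockout and lane 1 shared 6, and the knockout and lane 2 shared 0. Ccr2 itself stood at 331 UMIs per 1000000 in wild type (347 and 293 by lane) and 6.88 in the knockout, where 30 cells held a UMI of it. Whether the counted end lies in the deleted part is not given in the sources used here.

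Levels below are UMIs per 1000000 of the library (CPM). They count transcript ends and therefore do not scale with gene length. Intervals in brackets are exact 95% Poisson intervals, which cover counting error only. With 1 library per genotype there is no replicate and no test between genotypes. The lanes hold cells of 1 wild-type sample, told apart by barcode suffix, and are not replicates. Their spread may hold more than the run, which was not tested. Summed markers in lanes 1 and 2 were 947 and 3.27 CPM for red cells. For fibroblasts they were 31.6 and 11.6, and for endothelium 52.3 and 50.9. A gene is counted as different when its log2 ratio, with 1 CPM added to both sides, is 2-fold or more and its mean level is at least 10 CPM.

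Of the 8 pathway genes that reached this minimum, 3 were 2-fold or more higher in the knockout and 0 were lower: Skil, Tgif1 and Tgfbr2. Over all 7401 genes tested, 12.2% were past 2-fold in either direction, 9.04% higher and 3.12% lower. The median log2 ratio was 0.62 over the 8 genes, 0.38 with Smad3 included, and 0.18 over all genes. The ligand and Smad2 differed little between genotypes, so the set did not shift as a block. Between the wild-type lanes 0 of 8 were past 2-fold, against 0.727% of all genes.

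**Figure D1:**
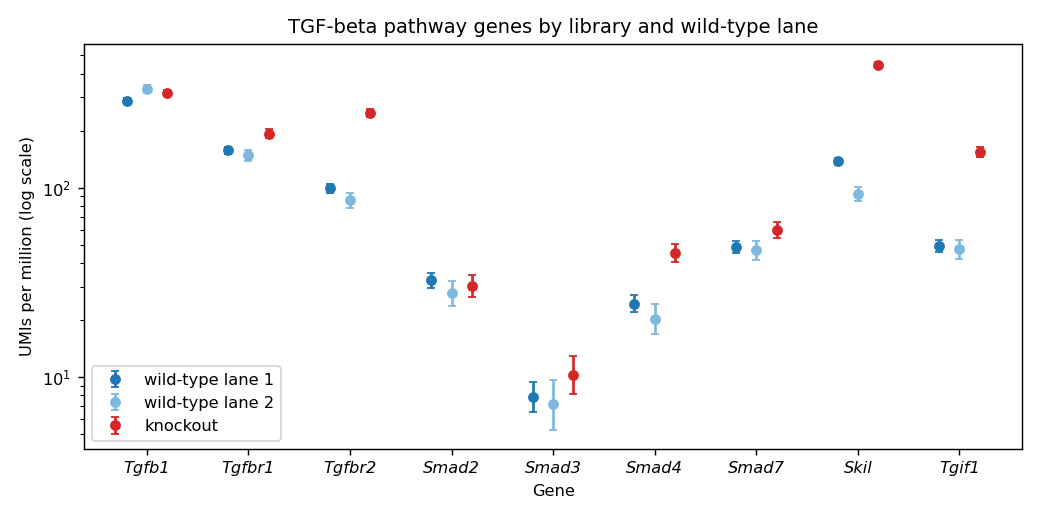
Level of each of the 9 genes in wild-type lane 1, wild-type lane 2 and the knockout (CPM, log axis; points with exact 95% Poisson intervals). Skil, Tgif1 and Tgfbr2 stand apart in the knockout at 443, 154 and 247, while the 3 points of Tgfb1 lie between 288 and 332.

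Tgfb1, the ligand (GRCm38 chromosome 7, 25687002 to 25705077, plus strand), stood at 288 (279 to 297) in lane 1, 332 (317 to 346) in lane 2 and 316 (303 to 329) in the knockout. The knockout value thus lay between the lanes. Against pooled wild type its log2 ratio was 0.07 (0.00 to 0.14). It was the most abundant of the 9 in wild-type cells.

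Tgfbr1 encodes the type I receptor kinase (chromosome 4, 47353222 to 47414931, plus strand). It measured 157 (151 to 164) in lane 1, 148 (139 to 158) in lane 2 and 193 (183 to 203) in the knockout. The knockout stood above both lanes, by 1.24-fold on the pooled wild type (log2 0.31, 0.22 to 0.41), which is short of the 2-fold mark. Tgfbr2 encodes the type II receptor, which binds ligand first (chromosome 9, 116084293 to 116175360, minus strand). Its levels were 99.2 (94.1 to 104) in lane 1, 85.6 (78.5 to 93.3) in lane 2 and 247 (236 to 259) in the knockout. The lanes lay close together and the knockout far above them, at 2.58-fold (log2 1.37, 1.28 to 1.47). Over whole libraries, wild-type cells held more Tgfbr1 than Tgfbr2 transcript ends, and knockout cells held more Tgfbr2. This order did not hold in every group of cells described below: knockout cells in the middle tercile of immediate-early share had 208 Tgfbr1 and 167 Tgfbr2, those in the upper tercile 188 and 298, and wild-type cells of 1000 to 2000 UMIs had 43 UMIs of each.

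Smad2 carries the receptor signal to the nucleus (chromosome 18, 76241580 to 76310963, plus strand). It stood at 32.5 (29.6 to 35.5), 27.8 (23.8 to 32.4) and 30.3 (26.4 to 34.6) in lane 1, lane 2 and the knockout, and these overlapped. Smad3, its close relative (chromosome 9, 63646767 to 63757994, minus strand), was the scarcest of the set, with 7.89 (6.52 to 9.47), 7.20 (5.24 to 9.67) and 10.3 (8.12 to 12.9). It rested on 159 wild-type and 75 knockout UMIs and fell below the minimum level. Smad4, the shared partner (chromosome 18, 73639009 to 73703780, minus strand), measured 24.4 (22.0 to 27.1), 20.3 (16.9 to 24.2) and 45.1 (40.4 to 50.3). The knockout was above both lanes, at 1.91-fold (log2 0.93, 0.75 to 1.17), just short of the mark on pooled wild type and past it against lane 2 alone (log2 1.12).

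Smad7 is the inhibitory Smad that blocks the type I receptor (chromosome 18, 75367529 to 75395935, plus strand). Lane 1 held 48.9 (45.3 to 52.6), lane 2 held 46.7 (41.4 to 52.4) and the knockout 60.0 (54.5 to 65.9), a log2 ratio of 0.31 (0.15 to 0.48). Skil encodes SnoN, a co-repressor that binds Smads and is also a target of the pathway (chromosome 3, 31095058 to 31122577, plus strand). Its levels were 138 (132 to 144) in lane 1, 92.4 (84.9 to 100.3) in lane 2 and 443 (427 to 458) in the knockout. It showed the widest gap of the 9, 3.54-fold (log2 1.82, 1.76 to 1.91). It also differed most between the lanes, lane 2 being at -0.57 against lane 1 in log2 terms, and its knockout ratio ran from 1.68 against lane 1 to 2.25 against lane 2. Tgif1, a homeodomain co-repressor of Smad complexes (chromosome 17, 70844205 to 70853546, minus strand), stood at 49.1 (45.6 to 52.9) and 47.2 (41.9 to 52.9) in the lanes and 154 (145 to 163) in the knockout. The lanes agreed closely and the knockout was 3.13-fold higher (log2 1.64, 1.54 to 1.79).

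In wild-type cells the order of levels ran Tgfb1, Tgfbr1, Skil, Tgfbr2, Tgif1, Smad7, Smad2, Smad4 and Smad3, and the neighbours Tgif1 and Smad7 did not differ beyond their intervals. In knockout cells it ran Skil, Tgfb1, Tgfbr2, Tgfbr1, Tgif1, Smad7, Smad4, Smad2 and Smad3. Skil moved from the third place to the first, above the ligand.

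The scale set part of these values. With median-of-ratios size factors the median of all genes moved from 0.18 to -0.12. Relative to that scale Tgfbr1 was at 0.01, Smad7 at 0.00 and Tgfb1 at -0.24, while Skil (1.51), Tgif1 (1.34) and Tgfbr2 (1.06) remained past 2-fold. Within the macrophage gate Skil was at 1.94, Tgif1 at 1.68 and Tgfbr2 at 1.38, as large as over all cells.

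The upstream 250 bases of the ligand and of the 2 higher genes with a RefSeq entry are shown (GRCm38.p6, gene strand, the last base just before the start site), to set the flat ligand beside genes that differed. Capitals mark CAGAC, a short Smad-binding element, searched on both strands.
Tgfb1, chr7:25686752-25687001, plus strand: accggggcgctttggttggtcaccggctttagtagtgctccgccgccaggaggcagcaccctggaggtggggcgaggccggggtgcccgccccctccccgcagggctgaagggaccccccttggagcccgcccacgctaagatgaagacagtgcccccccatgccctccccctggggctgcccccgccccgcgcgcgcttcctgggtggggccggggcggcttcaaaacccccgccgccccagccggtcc
Tgfbr2, chr9:116175364-116175613, minus strand: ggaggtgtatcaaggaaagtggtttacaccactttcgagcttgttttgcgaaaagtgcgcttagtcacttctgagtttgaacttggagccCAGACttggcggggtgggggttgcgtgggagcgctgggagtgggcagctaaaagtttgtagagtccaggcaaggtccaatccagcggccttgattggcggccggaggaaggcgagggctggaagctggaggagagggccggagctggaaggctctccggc
Tgif1, chr17:70853533-70853782, minus strand: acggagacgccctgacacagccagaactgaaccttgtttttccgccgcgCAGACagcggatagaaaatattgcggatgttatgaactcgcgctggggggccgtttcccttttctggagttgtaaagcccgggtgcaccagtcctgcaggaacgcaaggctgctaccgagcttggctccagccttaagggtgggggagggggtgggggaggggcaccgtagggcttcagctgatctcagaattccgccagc
The element occurs once in the Tgfbr2 window, from position -160, and once in the Tgif1 window, from position -201, with 0 in the Tgfb1 window. Over the 10 windows listed it was in 5, among them 1 of Tgfbr1 (position -203), a gene short of 2-fold, and 3 of the 5 of Tgif1. It is common: 42.2% of 32851 upstream windows of that length hold it. The ligand's window is also the richest in G and C of the 3, at 75.2% against 58.4% and 59.6%. The AP-1 element TGANTCA (in 6.75% of windows) and the cAMP element TGACGTCA (1.55%) were in 0 of the 10 windows listed for 5 of the 9 genes. The palindrome GTCTAGAC (0.167%) was also in 0 of them, and the GC element GGCGCC (9.59%) in 1, upstream of Tgfbr1. All motifs were searched on both strands, and none of the CAGAC matches shown overlaps another motif. Of the 5 windows listed for Tgif1 the one farthest upstream is shown. These are descriptions of letters in a window and not of binding.

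Depth differed between the libraries, and cells were therefore compared within ranges of depth. In cells with 1000 to 2000, 2000 to 4000 and 4000 to 8000 UMIs the log2 ratio of Skil was 1.52, 1.42 and 1.51. Tgfbr2 gave 0.90, 0.86 and 0.93, smaller than the 1.37 over all cells and under 2-fold in each range. Tgif1 gave 0.88, 1.42 and 1.57, and Smad4 gave 0.57, 0.69 and 0.87. Skil thus kept its gap in these 3 ranges, and the gap of Tgfbr2 narrowed. Levels also moved with depth inside wild type: Tgfbr2 stood at 165, 138 and 113 CPM over the 3 ranges and Skil at 185, 169.9 and 139. The ligand moved the other way, from 177 to 209 to 292 in wild-type cells, against 304, 317 and 334 in knockout cells. Its log2 ratio went from 0.78 in the shallowest range to 0.60 and 0.19. The near-equal ligand levels of the whole libraries thus did not hold in the shallower ranges. With each cell thinned to 1000 UMIs the ligand's log2 ratio was 0.31. The genotypes also differed inside the ranges in other ways. In the shallowest, the immediate-early share was 3.76% in knockout and 1.15% in wild type, and 20.8% and 6.80% of cells held Timd4. The part of depth was not tested. The 3 ranges held 147, 713 and 1131 wild-type and 821, 1051 and 525 knockout cells. Depth was not equal inside them: knockout and wild-type medians were 1466 and 1823, 2824 and 2940, and 4810 and 5880 UMIs. The macrophage gate held 85.7%, 78.6% and 60% of the knockout and 94.6%, 97.5% and 94.9% of the wild-type cells. At 8000 to 16000 UMIs there were 935 wild-type but only 17 knockout cells, too few to compare. Skil was at 0.56 there (-0.09 to 1.14).

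**Figure D2:**
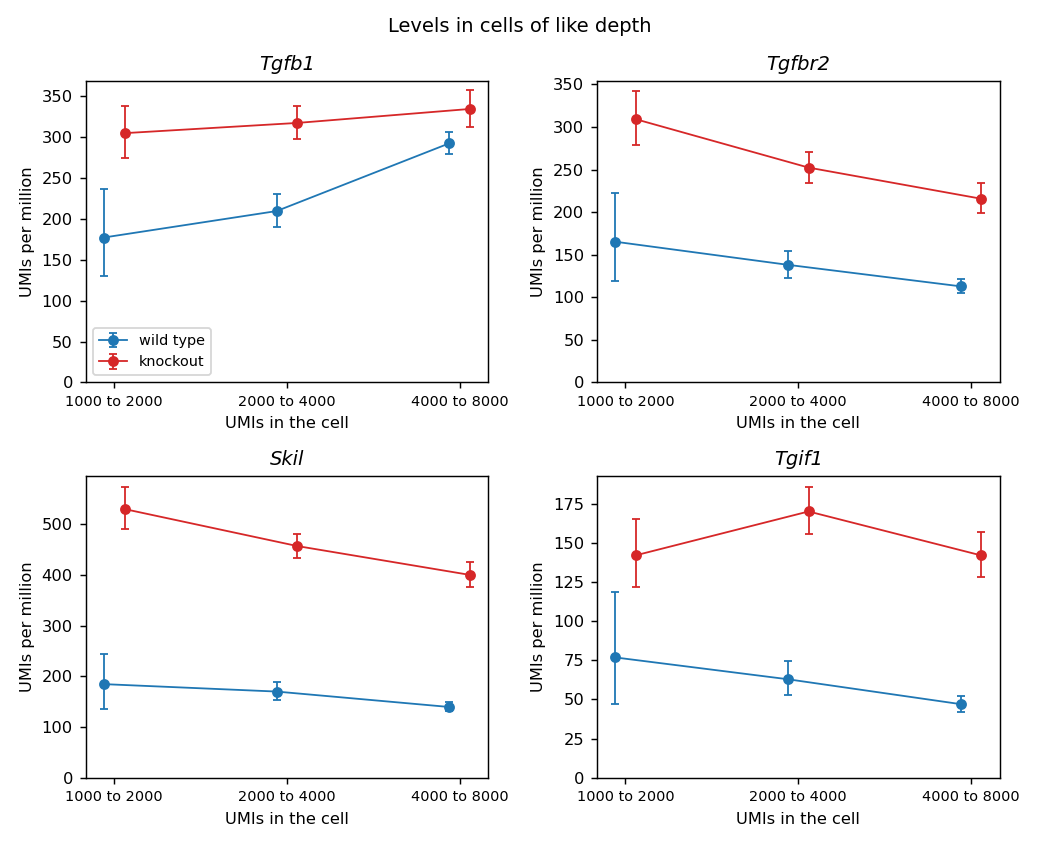
Levels of Tgfb1, Tgfbr2, Skil and Tgif1 (CPM) in cells grouped by their UMI count, for wild type and knockout, with exact 95% Poisson intervals. Skil is higher in the knockout in each range (530 against 185 in the shallowest, by 1.52 on the log2 scale), while the Tgfb1 lines draw together from 304 against 177 to 334 against 292.

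With each cell thinned to 1000 UMIs, 35.1% of knockout and 12.3% of wild-type cells held a Skil UMI. The share with Tgfbr2 was 22.2% against 10.3%, and that with Tgif1 13.7% against 5.90%. Tgfb1 was found in 25.7% against 22.0% and Tgfbr1 in 16.6% against 14.3%, so the separation lay in the same 3 genes as in the summed levels. Smad4 was found in 3.48% against 2.75%. Without thinning the shares were 59.5% against 47.9% for Skil, 42.4% against 44.0% for Tgfbr2, 29.5% against 24.8% for Tgif1 and 47.0% against 69.1% for Tgfb1, at unequal depth. Thinning left out 196 knockout cells and 1 wild-type cell. No cells known to lack the genes were set beside these shares. In the cells that carried lymphoid markers (50 knockout, median 2617 UMIs, and 81 wild-type, median 9377) Skil was found after thinning in 18.0% and 7.41%, and Tgfb1 in 10.0% and 14.8%.

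Both receptors were seen together in 68 of 2416 thinned knockout cells (2.81%, exact Clopper-Pearson interval 2.19% to 3.55%) and in 43 of 3015 wild-type cells (1.43%, 1.03% to 1.92%). Ligand and both receptors together were seen in 21 knockout and 10 wild-type cells. These are shares of cells with a captured UMI at this depth, not of cells that make the receptors.

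Ccr2 marks cells closer to their monocyte origin, and the wild-type cells were grouped by their Ccr2 UMIs: 1692 with 0, 490 with 1 to 2, 360 with 3 to 5 and 474 with 6 or more. The class is tied to depth, with median UMIs of 5303, 5766, 6739 and 9580. Cells with a Timd4 UMI, a marker of long-lived resident macrophages, made up 20.9%, 8.98%, 7.78% and 4.01% of the classes. Between the highest class and the class without Ccr2, 1 of 8 pathway genes was 2-fold or more lower (Smad7) and 0 were higher. Of all 6984 genes 5.1% were past 2-fold in either direction, 3.87% lower and 1.23% higher. The median log2 ratio was -0.33 over the 8 and -0.10 over all genes.

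The receptors and the inhibitory Smad were lower in the highest Ccr2 class than in the class without Ccr2, in both lanes. With the lanes pooled each was lower at every step. Tgfbr1 went from 179.9 (172 to 188) through 161 and 125 to 115 (106 to 125), a log2 ratio of -0.64 (-0.66 in lane 1 and -0.60 in lane 2). Tgfbr2 went from 109 through 104 and 98.2 to 58.2 (51.6 to 65.4), with -0.90 (-0.82 and -1.23 by lane). Smad7 went from 58.4 to 45.6 in the class of 3 to 5 UMIs and 27.3 (22.8 to 32.4) in the highest, with -1.07 (-0.96 in lane 1 and -1.43 in lane 2). By lane, 0 of 8 pathway genes were past 2-fold in lane 1 (5.24% of all genes) and 2 of 8, Smad7 and Tgfbr2, in lane 2 (7.15%). In lane 2 the steps were uneven: Tgfbr2 went 98.8, 104, 84.4 and 41.7, and Smad7 57.8, 41.2, 51.9 and 20.9, the last on 27 UMIs. Over both lanes the first 3 classes of Tgfbr2 lay close and the lower level stood in the last, whereas Tgfbr1 was already lower in the class of 3 to 5 UMIs.

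Skil was also lower in the highest class than in the class without Ccr2, at log2 -0.57 (-0.61 in lane 1 and -0.51 in lane 2). It was level at 137, 128 and 131 and then 92.0 in the highest class. The remaining genes did not share this course. Tgif1 ran the opposite way, at 42.6, 51.9, 60.7 and 51.7 (0.27). The ligand measured 314, 293, 271 and 295, and Smad2 stayed between 30.0 and 33.0. Smad4 had no common direction in the lanes (0.18 in lane 1 and -0.67 in lane 2). The immediate-early share was 0.770%, 0.819%, 0.894% and 0.893% over the classes, so it moved little there. Among wild-type cells of 2000 to 4000 UMIs only 31 cells were in the highest class. In those, Smad7 was again lower, on 1 UMI, and Tgfbr1 was at -0.65 (12 UMIs), but Tgfbr2 was at -0.13 (13 UMIs). The part of depth in the Tgfbr2 course was not tested further.

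**Figure D3:**
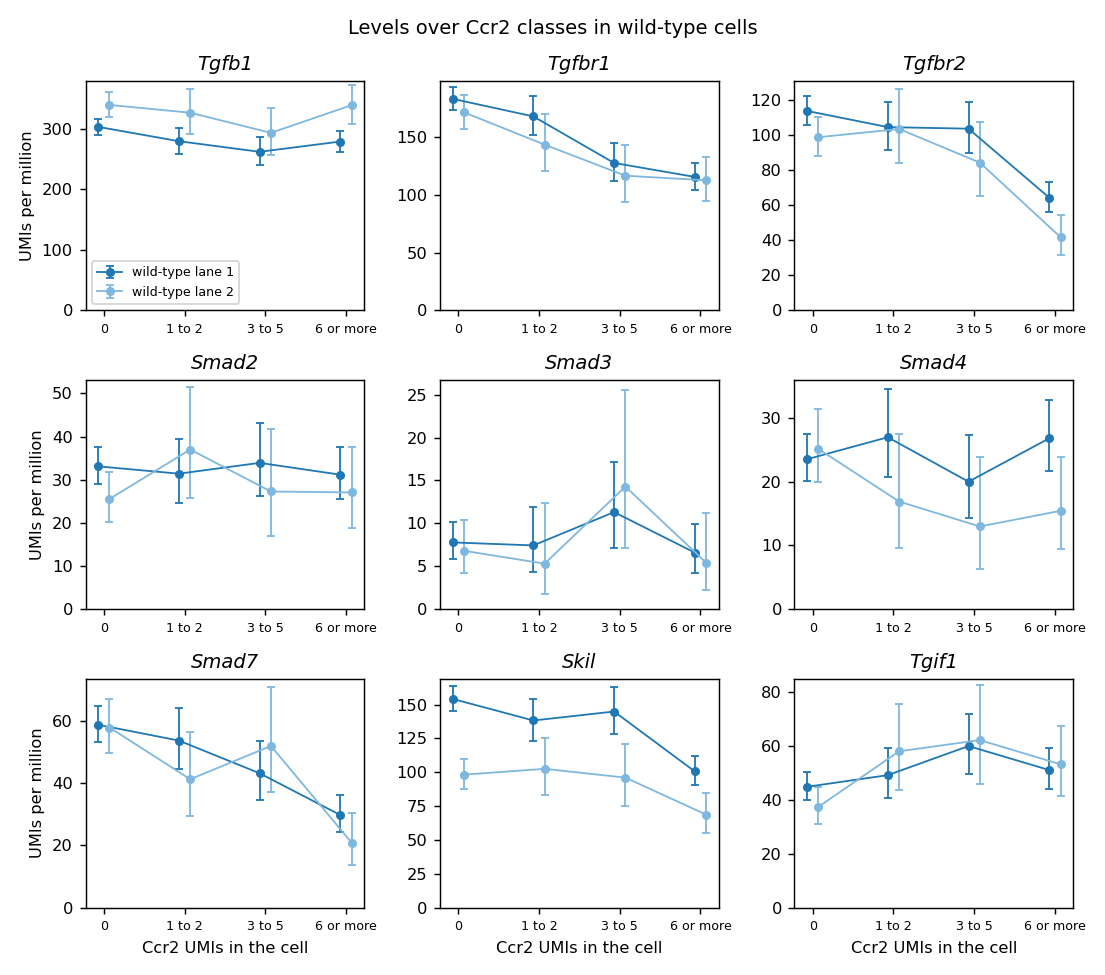
Levels of the 9 genes (CPM, exact 95% Poisson intervals) over 4 classes of wild-type cells by Ccr2 UMIs, drawn for each wild-type lane. Tgfbr1 (179.9 to 115 over both lanes), Tgfbr2 (109 to 58.2) and Smad7 (58.4 to 27.3) end lower in both lanes, unevenly in lane 2 for Tgfbr2 and Smad7, while Smad2 stays between 30.0 and 33.0.

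Timd4 detection gave smaller differences. Timd4 encodes the phosphatidylserine receptor Tim-4 and had a UMI in 445 wild-type and 815 knockout cells. In wild type 0 of 8 pathway genes were past 2-fold between cells with and without it (1.35% of all genes), and in the knockout 0 of 9 (1.5%). In wild type, Tgfbr1 stood at 198 with and 147 without Timd4 (log2 0.43, 0.30 to 0.56), and Smad7 at 64.4 and 45.3 (0.50, 0.28 to 0.73). Both pointed the way the Ccr2 classes had, and 20.4% of Timd4-positive but 48.0% of the other wild-type cells held Ccr2. Among wild-type cells without Ccr2 the values were 0.27 and 0.35, and Tgfbr2 went from 0.30 to 0.01.

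In the knockout the ligand and its type I receptor were higher in cells with Timd4, short of 2-fold. Tgfb1 stood at 368 (345 to 392) in knockout cells with Timd4 and 287 (272 to 303) in those without (log2 0.36, 0.24 to 0.48), and their median depths were 3014 and 2189 UMIs. In knockout cells of 2000 to 4000 UMIs the ratio was 0.37. In wild type it was 0.13, with 0.06 in lane 1 and 0.28 in lane 2. Whether the genotypes differ in this was not tested. Tgfbr1 stood at 214 with and 180.4 without Timd4 in the knockout (0.25, 0.09 to 0.40). Over 7 alternatives its ratio ran from 0.06 to 0.29, and that of Tgfb1 from 0.28 to 0.39. Smad3 had the highest ratio, 0.58, on 35 and 40 UMIs, and its interval (-0.06 to 1.33) spanned 0, as did that of Smad7 (0.21, -0.08 to 0.49). Skil, Tgif1, Smad2 and Smad4 stayed between -0.01 and 0.06 in the knockout.

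**Figure D4:**
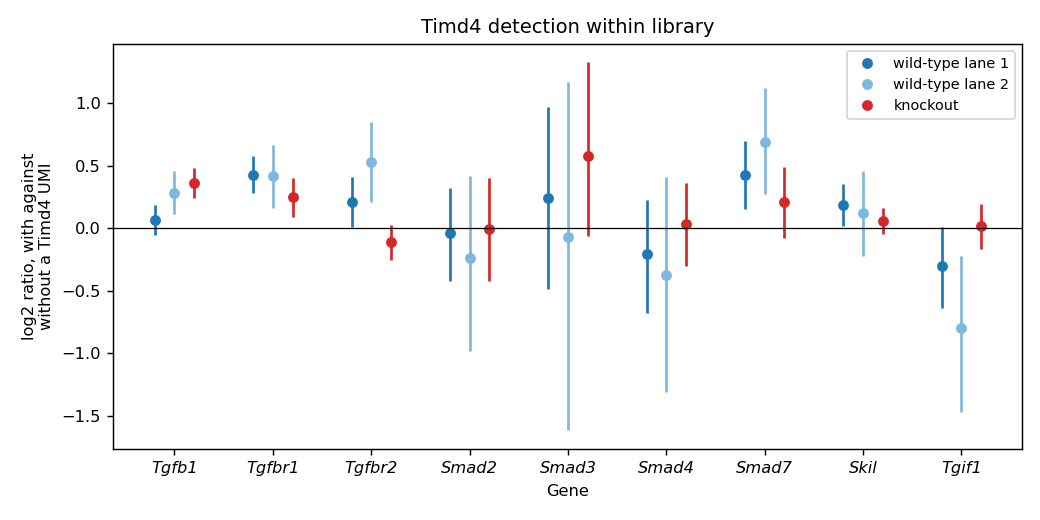
Log2 ratio of cells with to cells without a Timd4 UMI for the 9 genes, in wild-type lane 1, wild-type lane 2 and the knockout, with exact intervals from counting. Tgfbr1 lies above 0 in all 3 (0.43, 0.41 and 0.25), and Tgif1 lies below 0 in both lanes (-0.30 and -0.79) and at 0.02 in the knockout.

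The libraries differed in their share of resident cells, and the genotypes were also compared among cells with Timd4 and without Ccr2 (812 knockout, 354 wild-type). There 4 of 9 pathway genes were 2-fold or more higher in the knockout, against 11.5% of all genes past 2-fold in either direction and 7.61% higher: Tgif1 (log2 2.23), Skil (1.76), Smad4 (1.17) and Tgfbr2 (1.09). Tgfb1 (0.13), Tgfbr1 (0.05) and Smad7 (-0.09) were near 0. The 3 genes with a gap over all cells thus had it among these cells, and the ratios of Tgfbr1 and Smad7 were smaller than over all cells. The cells were alike in detection only: Timd4 stood at 449.7 in the knockout and 241 in wild type, median depth at 3015 and 5919 UMIs, and the immediate-early share at 2.90% and 0.685%.

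Immediate-early transcripts moved with some of these genes. They were 2-fold or more higher in the knockout for 17 of 18 genes tested (median log2 1.77), and 1770 knockout but 106 wild-type cells fell in the upper tercile of their share (cuts at 0.8248% and 2.453% of a cell's UMIs, taken over all cells). Inside wild type, Skil stood at 99.3, 157 and 268 from the lowest to the highest tercile. Tgif1 stood at 34.6, 67.7 and 115. Median depth also differed over these wild-type terciles, at 6337, 6020 and 3649 UMIs. Tgfbr2 did not follow in wild type, with 98.6, 89.2 and 98.4. In the knockout Skil measured 140, 408 and 485, Tgif1 63.1, 143 and 167, and Tgfbr2 155, 167 and 298. Smad4 rose in wild type (20.6, 26.6 and 39.8) but not in the knockout (68.8, 44.8 and 43.5).

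Within terciles the genotype log2 ratios of Skil were 0.50, 1.37 and 0.85, and those of Tgif1 0.85, 1.07 and 0.53. They were smaller than over all cells, and past 2-fold only in the middle tercile. Tgfbr2 gave 0.65, 0.90 and 1.59 and Smad4 1.69, 0.73 and 0.13, so the former was widest in the upper and the latter in the lowest tercile. The counts past 2-fold were 1 in the lowest tercile (Smad4, with 17.9% of all genes past 2-fold), 2 in the middle (Skil and Tgif1, 9.02%) and 1 in the highest (Tgfbr2, 14%). The lowest tercile held only 111 knockout cells, of which 47.7% were inside the macrophage gate, against 92.1% of 1765 wild-type cells. Finer steps gave Skil a ratio of 0.25 (-0.41 to 0.85, 63 knockout cells) in cells with under 0.5% immediate-early UMIs. It was 1.38 at 1 to 1.5% and 0.67 at 2.5 to 3.5%. Cells at 3.5% or more were outside these steps. The part of the immediate-early state in the genotype difference was not tested.

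**Figure D5:**
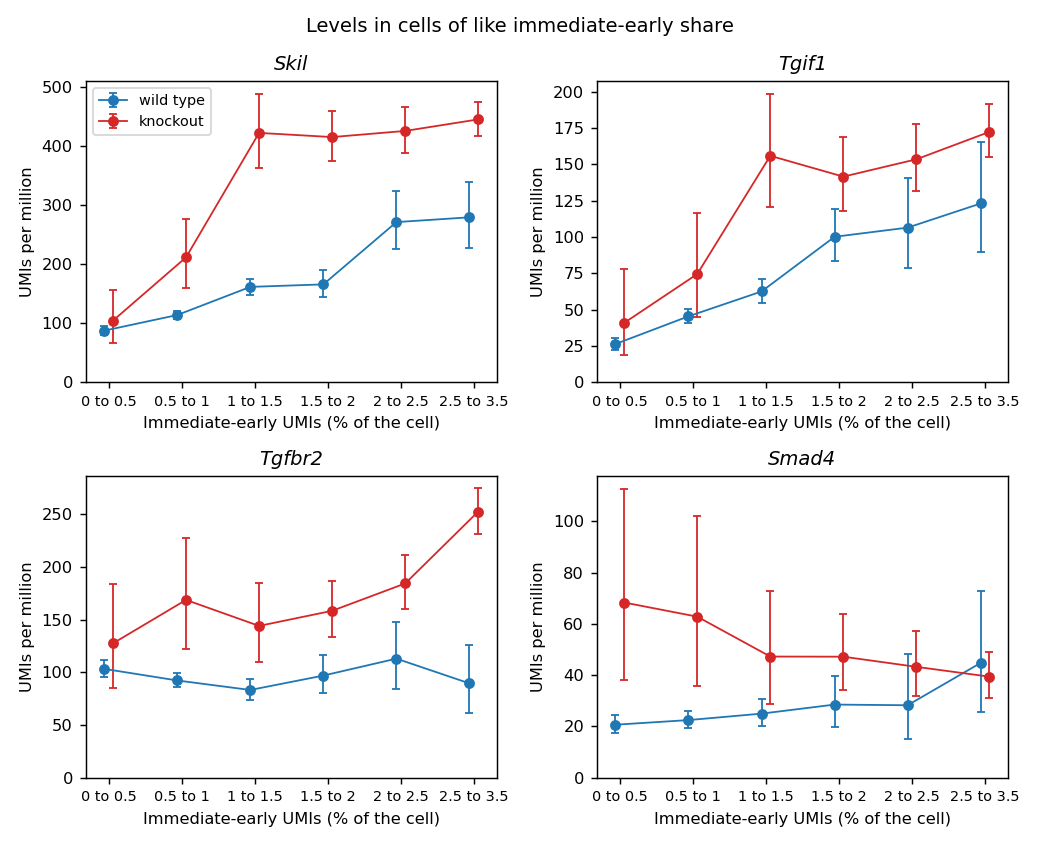
Levels of Skil, Tgif1, Tgfbr2 and Smad4 (CPM, exact 95% Poisson intervals) in cells grouped by the share of immediate-early UMIs, for wild type and knockout. Wild-type Skil climbs from 87.8 to 279.9 and knockout Skil from 105 to 446, with overlapping intervals in the lowest group. That group holds 63 knockout cells with 23 Skil UMIs. Cells with a share of 3.5% or more are not drawn.

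The wider pathway was described with lists of other genes, named by the same 2-fold rule and by level. Their counts stand beside 9.04% of all genes higher, 3.12% lower and a median of 0.18. Of 16 ligands and activators 8 were tested, 2 were higher and 0 lower (median 0.32): Thbs1, thrombospondin 1, which activates latent ligand, at 401 against 117 CPM (1.77), and Itgav, the integrin subunit that does the same with its partners, at 176 against 86.2 (1.02). Mmp9, a protease and the most abundant of the list, stood at 559 against 369 (0.60). Of 9 further receptors 3 were tested and 0 were past 2-fold in either direction (median 0.33). The most abundant were Acvrl1 (96.3 against 76.4) and Bmpr2 (61.9 against 37.2), receptors of the wider family. The other 6 were under the minimum level, among them Bmpr1a (8.12 against 1.79 CPM, 59 and 37 UMIs) and Tgfbr3 (19 and 4 UMIs), named after their values were seen.

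Among 11 other Smads and partners 8 were tested, 1 was higher and 0 lower (median 0.48), a share near the 9.04% of all genes. Ep300, an acetyltransferase that joins Smad complexes, stood at 137 against 63.3 (1.11), and its relative Crebbp at 97.9 against 69.7 (0.48). Of 11 further genes of restraint 8 were tested, 2 were higher and 0 lower (median 0.74, with 9.04% of all genes higher). Ppp1r15a, a phosphatase subunit that acts on the type I receptor with Smad7, stood at 491 against 133 (1.87), and Pmepa1, a membrane protein that sequesters Smads, at 272 against 104 (1.38). Pmepa1 was also lower in the highest Ccr2 class, by -1.71, a direction it shared with Smad7.

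Of 19 target genes 16 were tested, 9 were higher and 0 lower (median 1.56), against 9.04% higher and a median of 0.18 over all genes. They included Klf10 (2.02), Klf11 (1.75), Id2 (1.46), Cdkn1a (2.04), Il10 (1.98), Bhlhe40 (1.66), Junb (2.04, from 1174 to 4831 CPM) and Col1a1 (3.10). Junb is also in the immediate-early list and Col1a1 is a fibroblast marker, and neither is specific to the pathway. Other targets were not past 2-fold: Tgfbi, named for the pathway, was lower, at -0.37. Cx3cr1, the fractalkine receptor of gut macrophages, was higher but short of 2-fold, at 1025 against 621 CPM (0.72). In the lowest immediate-early tercile Junb was at 0.08, Cdkn1a at 0.00 and Il10 at 0.26. Klf10 (1.70), Klf11 (1.285), Id2 (1.16), Bhlhe40 (1.71) and Col1a1 (6.11) had ratios past 2-fold there, with no minimum level applied. Klf11 was scarce, at 20.4 CPM in the whole knockout and 5.37 in the whole wild-type library. Tgfbi was at -1.06 and Cx3cr1 at -0.29. From the lists above, Ppp1r15a was at 0.06, and Pmepa1 (1.03) and Thbs1 (0.997) stayed near 2-fold. That tercile held 111 knockout cells, with 17.9% of all genes past 2-fold. Inside the macrophage gate were 47.7% of its knockout and 92.1% of its wild-type cells. Tgfbi and Cx3cr1 were chosen for mention by name and by level, the former after its value was seen.

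Likeness of pattern was measured as Pearson's r of log2 levels over 9 strata (knockout and the lanes, by Timd4 and Ccr2 detection), which share libraries and depth. The genes most like Skil were Ddx5 (0.99), mt-Atp8 (0.99) and Kctd12 (0.99). Those most like Tgfbr2 were Ctnnd1 (0.99), Birc2 (0.99) and Klhl9 (0.99), and Skil and Tgfbr2 stood at 0.96 with each other. For Tgfbr1 they were Nceh1 (0.99), Rtn1 (0.98) and Itgax (0.98), with Smad7 at 0.95. For Tgfb1 the highest were lower, Cd300a (0.92), Mpdu1 (0.91) and Arsa (0.91). Tgfb1 stood at -0.07 with Skil and 0.40 with Tgfbr1. The knockout strata carry the genotype gap of Skil and Tgfbr2, and over the immediate-early terciles of wild type these genes did not run together.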

How the data were processed

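The authors' deposited matrices held raw UMI counts, all whole numbers, for each cell and gene from the 10x 3′ v2 chemistry, made with Cell Ranger 3.0.1 on mm10, per the submitters' processing notes. Gene identifiers were matched to GENCODE M21 (GRCm38), with 98.7% found. Counts were summed over kept cells and scaled to 1000000 per library or class. Ratios carry exact conditional intervals for counts and shares carry exact Clopper-Pearson intervals, all at 95%. Such intervals cover counting error only, over 20678108 wild-type and 7265386 knockout UMIs. Doublets were left in. An alternative removed the highest Scrublet scores (55 knockout and 43 wild-type cells), since the automatic threshold marked 1, 2 and 6 cells of the knockout, lane 1 and lane 2. With 1 library per genotype no replicate test was possible. The members, lists and alternatives were chosen with earlier results of these data known. Other pathway genes were named when past 2-fold or among the 2 most abundant of their list, and likeness was taken for the 4 most abundant members. The values of 1 target gene that met this rule are not reported here. The alternatives covered scaling, pseudocount (10 CPM), minimum level, cell filter (500 genes, 5% mitochondrial), doublets, depth, lane, cell population and immediate-early share. Scripts (Python 3.11.15, NumPy 2.4.6, SciPy 1.17.1, pandas 2.3.3, scanpy 1.11.5) were tested on simulated data. Promoter sequences came from RefSeq.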

Additional observations from a re-analysis of the deposited data

Results flagged for a closer look

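For 3 genes the cells with a Timd4 UMI stood to the opposite side of those without it in the genotypes, and the difference itself was not tested. Tgfbr2 was higher with Timd4 in wild type (log2 0.30) and lower in the knockout (-0.11, interval -0.26 to 0.03). Tgif1 was lower with Timd4 in wild type (-0.42) and level in the knockout (0.02). Smad4 was at -0.24 (-0.66 to 0.13) in wild type and 0.03 (-0.30 to 0.36) in the knockout, and both intervals spanned 0.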

How the results depend on the processing

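Over 18 alternatives the knockout to wild-type log2 ratio kept its sign for Skil (0.50 to 2.25), Tgif1 (0.29 to 2.23), Tgfbr2 (0.65 to 1.59) and Smad4 (0.13 to 1.69), while that of Tgfb1 ran from -0.64 to 0.60. The count of genes past 2-fold, 3, became 1 in the lowest immediate-early tercile and 1 in the highest. It was 2 (Skil and Tgif1) in the middle tercile and at 2000 to 4000 UMIs (8.52% of all genes). Smad4 joined to give 4 against lane 2 alone (18.6%) and among cells with Timd4 (10.6%). In the lowest tercile inside the macrophage gate the 3 were other genes: Tgfbr2, Smad4 and Smad7 (25.7%). Smad7 was lower there (-1.43) on 2 knockout UMIs. The Ccr2 count, 1, became 0 with a pseudocount of 10 CPM, 0 in lane 1, 2 in lane 2 (Tgfbr2 and Smad7) and 3 in cells of 2000 to 4000 UMIs, where Smad7 (-2.47) and Skil (-1.69) were lower and Tgif1 (1.13) higher, with 27.2% of all genes past 2-fold there against 5.1%. The Timd4 counts, 0 in each genotype, both became 1 in that depth range, through Smad4 in wild type (-2.72) and Smad3 in the knockout (1.45), with 10.4% and 2.23% of all genes past 2-fold. The cause was not tested, and few UMIs lay behind these depth-range values. Of 42 counts under alternatives, 34 stayed within 1.5 times. The upper and middle terciles, the finer steps of depth and of immediate-early share, the lowest tercile inside the macrophage gate, and the cells with Timd4 and without Ccr2 were chosen after seeing the data. Leaving out a replicate was impossible with 1 library per genotype. No paired analysis was possible because each genotype is 1 library and no test was run.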
